A study of Homo sapiens with 4 samples.

Results

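The Eph receptors and their ephrin ligands were followed in MIA PaCa-2 cells, an established human pancreatic carcinoma line, with and without overexpression of ING3. The set held 9 genes chosen by name: the receptors EPHA2, EPHA4, EPHB2, EPHB3 and EPHB4, and the ligands EFNA1, EFNA5, EFNB1 and EFNB2. On the array, 8 of the 9 had at least 1 probe set that the platform annotation gives to that gene alone, out of 19775 such genes. EPHB2 had none and was not analysed here. The 8 genes had 18 probe sets, and each gene was represented by its brightest one. Of the 8 genes, 7 passed the filter on dim genes (a mean log2(signal + 1) over all 4 arrays of at least 6.04) and were tested with 12190 genes in all; EFNB1 was under it.

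The ING3 cells carried FLAG-tagged full-length ING3, which belongs to a histone acetyltransferase complex, in a lentiviral vector with a CMV/TO promoter and puromycin resistance (2 arrays, a and b). The control cells carried a GFP lentivirus (2 arrays, a and b). Both were stably selected and harvested near confluence in serum. The arrays of a group are technical duplicates per the series' design text, so every p-value here sets 1 cell population against another and measures the spread between duplicates, not between cultures. In bulk RNA, fewer expressing cells and less RNA per cell cannot be told apart.

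Eph receptors are receptor tyrosine kinases that sit on one cell and are activated by ephrins held on the membrane of a neighbouring cell. A-type ephrins are attached by a lipid anchor and mostly bind EphA receptors, while B-type ephrins cross the membrane and mostly bind EphB receptors; EPHA4 binds both types. Contact sends a signal into both cells, which acts through Src family kinases among others on adhesion, repulsion and movement. In carcinomas EPHA2 is often abundant and is studied as a regulator of invasion, and ephrin-A1 is its best known ligand.

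EPHA2 and EPHA4 were the member receptors whose ING3 and control arrays did not overlap, so the bases before their annotated starts are shown. These are the 250 bases upstream of each start from RefSeq (GRCh38.p14, all on the minus strand, written 5′ to 3′ along the gene). EPHA2 has 1 start in that table (chr1:16156070-16156319) and EPHA4 has 2 (chr2:221574203-221574452 and chr2:221572305-221572554). Capitals mark every match on either strand to TGACGTCA (the cAMP response element), TGAGTCA (AP-1), GGAATG (TEAD), GCGTGGGCG (EGR1), GGGCGG (the GC box) or CCGGAAG (ETS).
EPHA2: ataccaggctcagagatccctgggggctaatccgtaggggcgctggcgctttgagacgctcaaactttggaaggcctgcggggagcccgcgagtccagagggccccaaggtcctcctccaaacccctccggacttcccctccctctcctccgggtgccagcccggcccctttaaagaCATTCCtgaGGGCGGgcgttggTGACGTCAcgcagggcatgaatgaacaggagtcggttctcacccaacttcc
EPHA4, outer start: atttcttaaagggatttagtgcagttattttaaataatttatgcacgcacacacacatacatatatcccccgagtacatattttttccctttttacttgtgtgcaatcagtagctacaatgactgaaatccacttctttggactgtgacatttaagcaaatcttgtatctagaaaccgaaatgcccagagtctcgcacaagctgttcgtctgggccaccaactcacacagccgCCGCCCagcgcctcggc
EPHA4, inner start: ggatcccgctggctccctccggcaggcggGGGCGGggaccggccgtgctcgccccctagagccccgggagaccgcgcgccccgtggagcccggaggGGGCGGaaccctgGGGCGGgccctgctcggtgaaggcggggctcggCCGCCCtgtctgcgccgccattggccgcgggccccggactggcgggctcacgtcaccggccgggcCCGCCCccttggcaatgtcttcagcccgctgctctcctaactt

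The EPHA2 window held a cAMP response element beginning 51 bases before the start, a GC box at 64 and a TEAD word on the other strand at 73, none of which overlap. A full cAMP response element was present in 1.65% of the 35116 promoter windows of the table, and the TEAD word in 11.9%. Among the 11 windows of the 9 genes, EPHA2 alone held either word. The EPHA4 windows held GC boxes only, 1 before the outer start and 5 before the inner one. The GC box was in all 11 member windows, in 13 of the 15 windows of the other Eph and ephrin genes and in 42.6% of all windows. The 2 EPHB2 windows among the 11 overlap almost fully (chr1:22710588-22710837 and chr1:22710589-22710838), so they are not separate readings. AP-1, EGR1 and ETS words (4.2%, 0.72% and 8.52% of all windows) were in no member window. These matches describe the letters only and were not tied to the expression values.

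The 4 arrays had been scaled alike. As a reading of RNA quality, ACTB 3′ over 5′ signal was 2.05 and 2.03 for the ING3 arrays, against 2.58 and 1.80 on the control arrays. The same ratio for GAPDH was closer across arrays, at 0.903 and 0.923 for the ING3 arrays and 0.934 and 0.905 for the control arrays. The ING3 transcript itself had signals of 521 and 541 in the ING3 cells, against 338 and 373 in the control cells, a log2 difference of 0.58 (SE 0.13, limma adjusted p = 0.071). That is its brightest probe set, and the other ING3 probe sets past the filter did not show this difference. One had 261 and 222 in the ING3 cells against 287 and 261 in the control cells, lower without overlap (log2 difference -0.19), and the other had 180.4 and 162 in the ING3 cells against 154 and 186 in the control cells, with overlap (0.018). With the mean of all ING3 probe sets the log2 difference was 0.23 (limma adjusted p = 0.66). Which of them read the introduced sequence was not tested. Of the 7 epithelial markers, the keratins KRT8 and KRT19 and the mucin MUC1 rose in the ING3 cells (limma adjusted p = 0.033, 0.0078 and 0.035). The keratins KRT18 and KRT7 were not called. KRT18 was higher in the ING3 cells without overlap (log2 difference 0.13, limma adjusted p = 0.31). KRT7 had a lower mean there, with overlap (-0.16, limma adjusted p = 0.86). EPCAM and CDH1, the gene of E-cadherin, were under the filter, with no signal above 37.9 on any array. Of the 3 mesenchymal markers, VIM had a signal of 24294 and 26668 in the ING3 cells and of 27676 and 25627 in the control cells, with overlap. ZEB1, a repressor of CDH1, had 3876 and 4277 in the ING3 cells against 3486 and 3563 in the control cells, without overlap (log2 difference 0.21, limma adjusted p = 0.17). CDH2, the gene of N-cadherin, was under the filter, with 35.6 and 32.1 in the ING3 cells against 11.5 and 7.68 in the control cells. The defining epithelial genes CDH1 and EPCAM were thus near the bottom of the scale in both groups.

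No member passed the test over all genes, where 1.50% of the 12190 tested genes were called by limma at an adjusted p under 0.05 (183 genes, but 305 without ING3 array a, 2 without control array a and 2 without control array b). At an unadjusted limma p under 0.05 there were 3 of 7 members, EPHA2, EPHA4 and EFNA5, against 17.7% of all tested genes. The ING3 and control arrays did not overlap for 4 of the 7 (EPHA2 and EPHA4 higher, EFNA5 and EFNB2 lower in the ING3 cells), against 49.2% of all tested genes. That share is near the background. The median absolute log2 difference was 0.20 for the 7 members and 0.13 for all tested genes, which were not matched by signal. The plot of signals by array shows each gene.

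**Figure D1:**
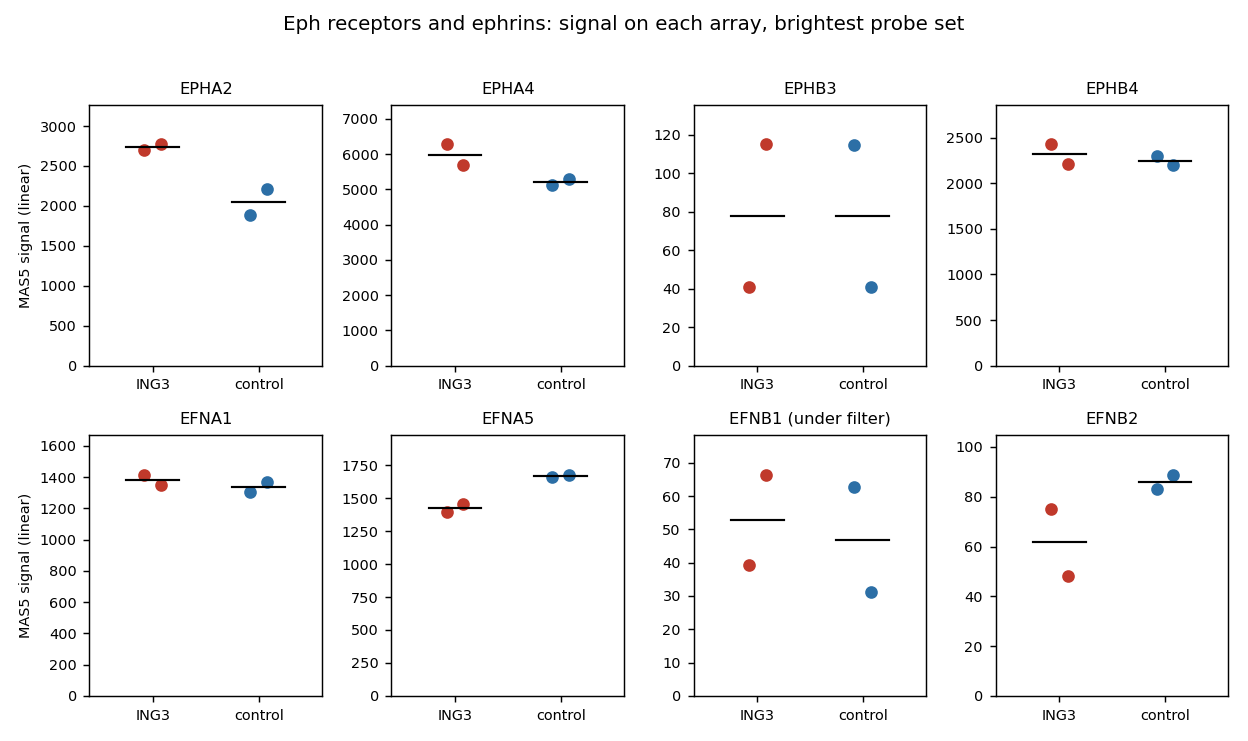
Linear MAS5 signal (vertical axis, from 0) of the brightest probe set of the 8 measured genes, with ING3 arrays in red on the left and control arrays in blue on the right of each panel (array a left of b) and a line at the mean of 2 arrays. EPHA2 and EPHA4 lie higher in ING3 cells without overlap, EFNA5 and EFNB2 lie lower, and EPHB3 and EFNB1 spread as widely within a group as between groups.

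Among the A-type receptors, EPHA2 had the smallest p of the members. Its signal was 2695 and 2769.8 on the ING3 arrays, against 1885 and 2215 on the control arrays. Both ING3 arrays lay above both control arrays, and the control duplicates were farther apart (0.23 on the log2 scale) than the ING3 duplicates (0.040). The gap between the nearest arrays of the groups was 0.28, so it exceeded both. The fold change was 1.34, with a log2 difference of 0.42 (SE 0.086, 95% interval 0.22 to 0.61).

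The limma adjusted p of EPHA2 was 0.051, just over the threshold, and EPHA2 was 198th of 12190 genes by p where 183 were called. With a pseudocount of 32 in place of 1 it was 0.048, which would be a call, and over all the alternatives it ran from 0.0089 to 0.32. Without control array a, the array with the lowest EPHA2 signal and the highest ACTB ratio, the log2 difference was 0.30 and the adjusted p was 0.32; without control array b they were 0.53 and 0.16. Summed signal of the 7 epithelial markers was 48863 to 52396 on the ING3 arrays and 42993 to 43078 on the control arrays, so the groups were apart in the same direction as for EPHA2. The largest part of this sum was KRT18, which was not called, with 27068 and 30058 in the ING3 cells against 26440 and 25701 in the control cells. Nearly all the rest was KRT8, KRT19 and MUC1, and EPCAM, CDH1 and KRT7 added little. Summed signal of the 6 fibroblast markers was 4103 to 4353 on the ING3 arrays and 4922 to 5073 on the control arrays, apart in the other direction. Most of this sum was COL1A2, with 3749 and 3996 in the ING3 cells against 4648 and 4548 in the control cells (limma adjusted p = 0.091). COL1A1 was also lower without overlap, and LUM, under the filter, was higher without overlap. DCN, PDGFRB and FAP overlapped, and no fibroblast marker was called. The sums of the mesenchymal, endothelial and leukocyte markers overlapped between the groups. The part of RNA quality or of these markers in the EPHA2 difference was not tested. EPHA2 had 1 probe set, so there was no second reading of it.

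EPHA4, the receptor that takes both ephrin types, was read by 5 probe sets. On the brightest, the signal was 6278 and 5697 in the ING3 cells, against 5135 and 5309 in the control cells. The groups did not overlap, but the gap between them (0.10, log2) was smaller than the distance between the ING3 duplicates (0.14). The log2 difference was 0.20 (SE 0.066, 95% interval 0.047 to 0.35, limma adjusted p = 0.17), a fold of 1.15.

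The other EPHA4 probe sets disagreed on the size and on the direction. The second brightest had 1378 and 1429 in the ING3 cells against 1030.3 and 992 in the control cells, which is a fold of 1.39 and a log2 difference of 0.47 (SE 0.086). When every probe set past the filter was tested on its own, its limma adjusted p was 0.058, the lowest among the 13 member probe sets past the filter; none of the 13 passed, and 0.479% of all 22559 probe sets did. At an unadjusted p under 0.05 there were 4 of the 13, against 16.2% of all probe sets. The third had 979 and 1070.5 in the ING3 cells against 928 and 997 in the control cells (log2 difference 0.090), and these groups overlapped. The fourth had 220 and 217 in the ING3 cells against 236 and 222 in the control cells (log2 difference -0.067), so it was lower in the ING3 cells without overlap. The fifth was under the filter, with signals of 8.73 and 3.19 in the ING3 cells and 19.1 and 1.38 in the control cells (log2 difference -0.11). Averaged over all EPHA4 probe sets, the log2 difference was 0.12 (limma adjusted p = 0.83). Where these probes lie in the EPHA4 transcript was not analysed here, and whether the probe sets differ from each other was not tested.

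**Figure D2:**
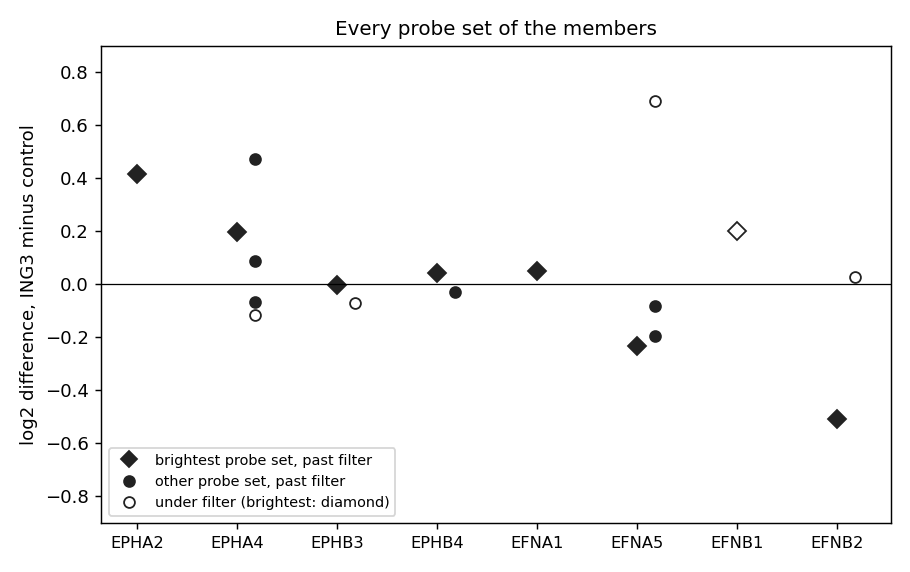
Log2 difference, ING3 minus control (vertical axis), of all 18 probe sets of the 8 measured genes (horizontal axis), with diamonds for the brightest probe set of a gene, circles for the others and open symbols for those under the filter. EPHA4 readings run from -0.11 to 0.47, and the 3 EFNA5 probe sets past the filter are all below 0.

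Among the B-type receptors, EPHB4, the main receptor of ephrin-B2 and known from the venous side of blood vessels, had signals of 2425 and 2213 in the ING3 cells, against 2296 and 2198 in the control cells. The groups overlapped. The log2 difference was 0.045 (SE 0.076, limma adjusted p = 0.81), and its 95% interval of -0.13 to 0.21 leaves room for a small difference either way. A second EPHB4 probe set had 296 and 277 in the ING3 cells against 278 and 307 in the control cells, also with overlap. EPHB3, which positions cells in the intestinal crypt, was dim and unsteady, with 40.9 and 115 in the ING3 cells against 115 and 41.1 in the control cells. Each group held 1 high and 1 low array, array b in the ING3 cells and array a in the control cells, so the log2 difference of -0.00079 (SE 0.60, limma adjusted p = 1.00) has an interval from -1.36 to 1.35. At this signal a difference of 2-fold in EPHB3 was not detectable.

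Among the A-type ligands, EFNA1, the first ephrin described and a ligand of EPHA2, had 1416 and 1350.3 in the ING3 cells, against 1306 and 1366 in the control cells. These overlapped, and the log2 difference was 0.050 (SE 0.082, 95% interval -0.13 to 0.23, limma adjusted p = 0.81). EFNA5, a ligand of several EphA receptors that also binds EPHB2, was at 1391 and 1456 in the ING3 cells, against 1662 and 1679 in the control cells. Both ING3 arrays were below both control arrays, and the gap of 0.19 (log2) was wider than the distance between the ING3 duplicates (0.065) or the control duplicates (0.015). The log2 difference was -0.23 (SE 0.077, 95% interval -0.40 to -0.057), and the limma adjusted p of 0.17 did not pass.

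The other EFNA5 probe sets past the filter had the same sign. The second had 930 and 840 in the ING3 cells against 956 and 916 in the control cells (log2 difference -0.082), with overlap. The third had 521 and 579 in the ING3 cells against 633 and 625 in the control cells (log2 difference -0.20), without overlap. The fourth, under the filter, had 17.1 and 22.5 in the ING3 cells against 9.67 and 14.3 in the control cells, so it went the other way at a very low signal. Averaged over all 4 probe sets, the EFNA5 log2 difference was 0.046, with the sign set by this dim one.

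The B-type ligands were at the lower end of what the array measured. EFNB2, the ligand of EPHB4 and a marker of arteries, had 75.0 and 48.2 in the ING3 cells, against 83.3 and 88.9 in the control cells. The groups did not overlap, and the ING3 duplicates were 0.63 apart on the log2 scale, more than the difference of -0.51 between the groups (SE 0.39, 95% interval -1.38 to 0.36, limma adjusted p = 0.54). A second EFNB2 probe set was under the filter, with 6.75 and 3.40 in the ING3 cells and 7.22 and 3.00 in the control cells. EFNB1, an X-linked ligand that patterns the skull and face, had 39.2 and 66.5 in the ING3 cells and 62.7 and 31.2 in the control cells. The groups overlapped, and it was not tested.

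**Figure D3:**
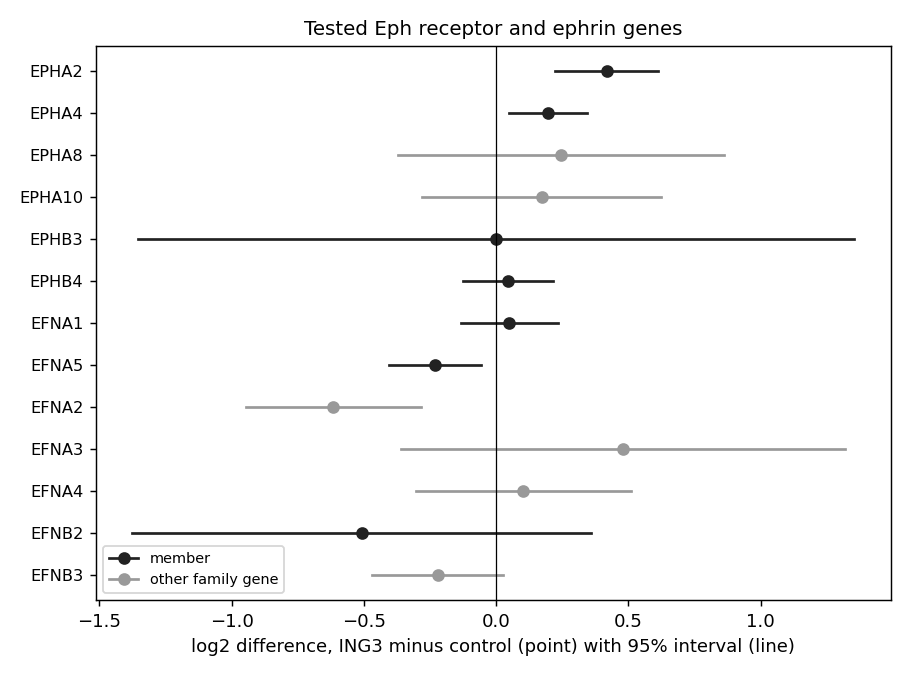
Log2 difference, ING3 minus control (horizontal axis), with the 95% interval of the limma fit, for the 13 tested Eph receptor and ephrin genes, receptors above ligands, the 9-gene set in black and other family genes in grey. The intervals of EPHA2, EPHA4, EFNA5 and EFNA2 do not reach 0 before adjustment for the number of genes, and none of the 13 genes passed after it.

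The 13 remaining genes of the family were read in the same fit, and 6 of them passed the filter. None of the 6 passed the test. EFNA2, another A-type ligand, had the largest difference of the whole family past the filter, with 361 and 466 in the ING3 cells, against 649 and 609.9 in the control cells. Both ING3 arrays were lower, by a gap of 0.39 on the log2 scale, close to the distance of 0.37 between the ING3 duplicates. The log2 difference was -0.62 (SE 0.15, 95% interval -0.95 to -0.28), and the limma adjusted p was 0.078 (0.030 to 0.36 over the alternatives, 0.041 without ING3 array b). Its other probe sets were at signals of 34.6 or lower on every array and had higher means in the ING3 cells, so the EFNA2 value rests on 1 probe set.

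EFNB3, a B-type ligand of the nervous system, had 703 and 825 in the ING3 cells, against 873 and 901 in the control cells (log2 difference -0.22, SE 0.11, limma adjusted p = 0.33). EFNA3 had 175 and 186 in the ING3 cells, against 82.5 and 201 in the control cells, so control array a alone was low (log2 difference 0.48, SE 0.37); without that array the difference was -0.16. EFNA4 had 325 and 271 in the ING3 cells and 252 and 302 in the control cells, with overlap. EFNA4, EFNA3 and EFNA1 are consecutive genes on chromosome 1 in the RefSeq gene order, and their log2 differences of 0.10, 0.48 and 0.050 were none of them past the test. The receptors EPHA8 and EPHA10, of which EPHA10 lacks kinase activity, had log2 differences of 0.24 (SE 0.27) and 0.17 (SE 0.20). Both had overlapping groups on the brightest probe set. A second EPHA8 probe set past the filter had 101 and 121 in the ING3 cells against 90.2 and 70.5 in the control cells. It was higher in the ING3 cells without overlap (log2 difference 0.47). EPHA1, EPHA3, EPHA5, EPHA6, EPHA7, EPHB1 and EPHB6 were under the filter, with no signal above 89.1 on any array for the brightest probe set.

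By role, the 6 tested receptors had a median log2 difference of 0.18 and the 7 tested ephrins one of -0.22, beside -0.0074 for all tested genes. Among the receptors, 2 had groups that did not overlap, both higher in the ING3 cells, and among the ephrins 4 did, all lower in the ING3 cells. These 6 of 13 genes are no more than the background of 49.2% of all tested genes. With no receptor or ligand past the test, these are counts of direction only, and receptors were not tested against ligands.

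**Figure D4:**
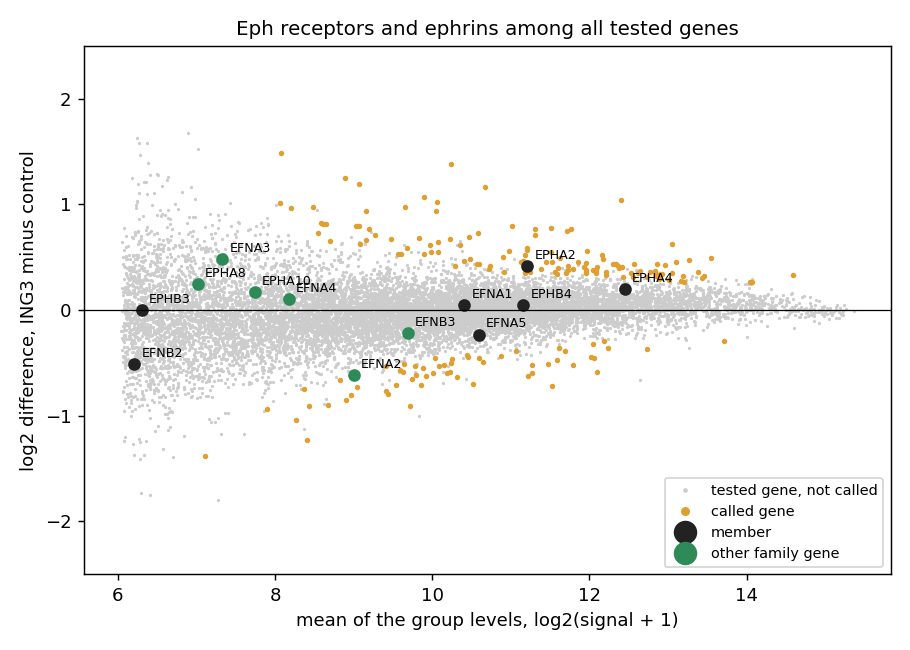
Log2 difference, ING3 minus control (vertical axis), against the mean level, log2(signal + 1) (horizontal axis), for the 12190 tested genes in grey with the 183 called genes in orange, the 7 tested members in black and 6 other family genes in green. EPHA2 lies at the inner edge of the called genes of like signal, and EPHB3 and EFNB2 lie in the wide part of the cloud at low signal.

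Genes that act with Eph receptors were read from 5 lists of 50 genes, of which 45 had a probe set of their own and 39 passed the filter. None of the 39 was called, against 1.50% of all tested genes, and 5 had an unadjusted limma p under 0.05, against 17.7% of all tested genes. The median absolute log2 difference of the 39 was 0.078, against 0.13 for all tested genes. The 39 were not matched to all tested genes by signal, and the SE differed with signal. For example, it was 0.086 for ADAM10 (control mean 14120) and 0.27 for MMP14 (control mean 169). The smaller median is therefore not read as a result about these genes. Of 9 tested kinases, ROCK2, which acts on actomyosin contraction, had a log2 difference of -0.18 (SE 0.097) and the Src family kinase FYN had 0.15 (SE 0.19).

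The adaptors held the widest difference of these lists. GRB7, an SH2 adaptor of receptor tyrosine kinases, had 353 and 311 in the ING3 cells, against 209 and 199 in the control cells. The groups were well apart, at a fold of 1.62 and a log2 difference of 0.70 (SE 0.17), yet the limma adjusted p was 0.086. Its relative GRB10 had 2051 and 1814 in the ING3 cells, against 2286 and 2304 in the control cells (log2 difference -0.25, SE 0.080, limma adjusted p = 0.15). In all, 12 adaptors, phosphatases and related genes were tested.

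Among 4 tested partners of ephrins in reverse signalling, DVL1 had a log2 difference of -0.14 (SE 0.11) and RGS3, which links ephrin-B to G proteins, had 0.11 (SE 0.11). Of 5 tested genes of Eph and ephrin cleavage, ADAM10, the main sheddase of ephrins, had 13203 and 16216 in the ING3 cells against 14033 and 14208 in the control cells, with overlap. The gamma-secretase subunits PSENEN and NCSTN had log2 differences of -0.22 (SE 0.085) and 0.19 (SE 0.098), in opposite directions and neither past the test. MMP14, a protease that cleaves EPHA2, had a log2 difference of -0.37 (limma adjusted p = 0.51).

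**Figure D5:**
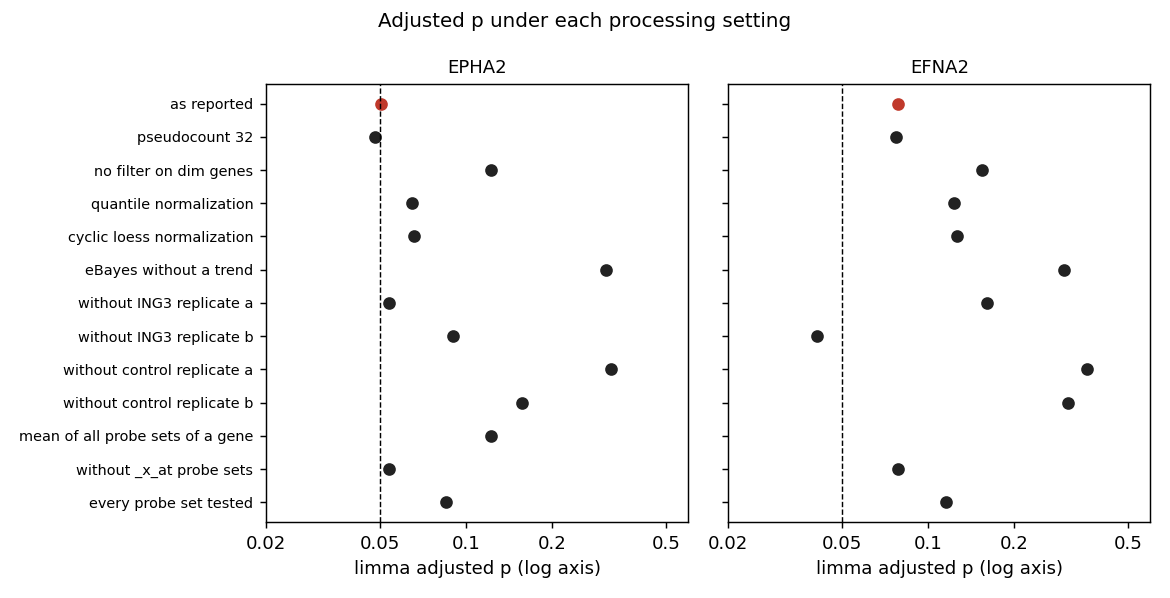
Limma adjusted p (horizontal axis, log scale, dashed line at 0.05) of EPHA2 (left) and EFNA2 (right) as reported (red) and under 12 alternative settings (black, rows; the replicate block is not drawn). EPHA2 is past the line only with a pseudocount of 32, at 0.048, and EFNA2 only without ING3 array b, at 0.041; EFNA2 has no point for the mean of all probe sets, where it fell under the filter.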

How the data were processed

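RNA was measured on 4 1-colour Affymetrix arrays. The deposited table holds linear signal intensity values per probe set (54675), which the authors computed by MAS5 in Expression Console per the submitters' processing notes (no version is given). Each array's trimmed mean was 499.9, so arrays share a scale, while dim probe sets vary widely. There were no detection calls.

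GEO's platform annotation of 2016 gave 41097 probe sets 1 symbol; 1801 with several symbols and unnamed ones were left out. Values were taken as log2(signal + 1), and genes with a mean at or above that of the median probe set (signal 64.6) were tested with limma 3.58.1 in R 4.3.3 (lmFit, eBayes with an intensity trend, two-sided, Benjamini-Hochberg over 12190 genes, call under 0.05). An exact permutation test of 2 against 2 arrays cannot go below p = 0.333 and was not used. Intervals are 95% and unadjusted. "Rose" and "fell" were reserved for called genes.

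Named were all members, other family genes past the filter and, per pathway list without calls, the 2 genes with the lowest p; ADAM10 and MMP14 were added after their values were seen. The genes of 1 pathway list are not reported here. Members, lists and tests were chosen with earlier results of these data known. Alternatives covered pseudocount, filter, normalization, variance model, probe-set choice, block and each array left out. The number of arrays limits the precision.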

Additional observations from a re-analysis of the deposited data

How the results depend on the processing

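The number of genes called over the whole array depended on the settings, and for the 13 tested family genes it stayed between 0 and 2. Against 183 called genes, there were 54 without the filter, 119 after quantile normalization, 0 by limma's eBayes without a trend (1686 genes at an unadjusted p under 0.05), 37 with the mean of all probe sets, 108 with every probe set tested, and 2 to 305 when 1 array was left out (2 without either control array). Apart from the replicate block, given next, the members called were 0, except 1 (EPHA2) with a pseudocount of 32, at a log2 difference of 0.413 and an adjusted p of 0.048. Apart from the same block, other family genes called were 0, except 1 (EFNA2) without ING3 array b, which gave 0 to 1 over the arrays left out, and its log2 difference then ran from -0.80 to -0.43. Pathway genes called were 0 under all 13 alternatives.

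The letters a and b occur in both groups. The differences between duplicates correlated at 0.029 between the groups across genes, so little was shared by letter across genes. That correlation cannot show whether the arrays were handled as pairs. With the letter as a replicate block 442 genes were called, among them EPHA2 (1 member, log2 difference 0.42, adjusted p = 0.0089), EFNA2 (1 other family gene, -0.62, adjusted p = 0.030) and ING3 (0.58, adjusted p = 0.040). With the mean of all probe sets ING3 was at 0.23 (adjusted p = 0.66).

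Signs turned for 5 family genes. EPHB3 was at 2.9e-05 with a pseudocount of 32, 0.11 after quantile normalization, 0.15 after cyclic loess and -0.73 to 0.73 with 1 array left out. EPHB4 ran from -0.021 to 0.11, EFNA3 from -0.16 to 1.12 and EFNA4 from -0.028 to 0.23 with 1 array left out. EFNA5 was 0.046 with the mean of all probe sets. EPHA2, EPHA4, EFNA1 and EFNB2 kept their sign under every alternative that gave a value; the last had none with the mean of all probe sets. The cause of these changes was not tested.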

Other observations

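The dim probe sets of the family had a wider range of log2 differences than those past the filter. Of the 50 probe sets of the 21 measured Eph and ephrin genes, 29 were under the filter, and their log2 differences ran from -3.16 to 1.68, with 8 of the 29 at 2-fold or more. The 21 past the filter ran from -0.62 to 0.48, with 0 at 2-fold or more. The share at 2-fold or more among all dim probe sets of the array was not worked out, and the cause of the wider range was not tested.

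EPHA7, a receptor of the developing nervous system, held both ends of that range. One of its probe sets had 4.05 and 2.30 in the ING3 cells against 38.6 and 32.9 in the control cells, while another had 30.4 and 14.5 in the ING3 cells against 2.17 and 13.8 in the control cells. Both had groups without overlap, in opposite directions, for the same gene. These probe sets were picked after their values were seen.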
